A study of Rattus norvegicus with 77 samples.

Results

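The enzymes and small redox proteins that remove superoxide and peroxides, make and use glutathione, and carry thiol reducing power were followed as 1 group of 37 genes in rat sperm RNA. A gene was taken from a probe set (the probes for 1 transcript) that the array annotation ties to its symbol alone, and where 2 such probe sets existed (2 genes) the one with the higher mean over all arrays was used. In this way 36 of the 37 genes were measured, out of 14506 named genes and 29214 probe sets, and Txnrd3 was matched neither by symbol nor by gene ID. The 36 genes comprised 4 superoxide dismutases and catalase, 6 glutathione peroxidases, 7 peroxiredoxins and sulfiredoxin, 6 thioredoxins and their reductases, 4 genes of glutathione synthesis and recycling, 4 glutathione transferases, 3 haem and quinone enzymes, and the pair of sensor and transcription factor, Keap1 and Nfe2l2.

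Each array held the sperm RNA of 1 adult male Fischer 344 rat, hybridised to the Affymetrix Rat Gene 1.0 ST array, and sperm were released from the cauda epididymis and passed through a lysis buffer meant for somatic cells. The HD-recovery group (n = 20) drank 0.33% HD (2,5-hexanedione, which damages the microtubules of Sertoli cells, the nurse cells of the testis) for 3 months and then water for another 3 months, and the water-recovery group (n = 18) drank water throughout. The HD group (n = 19) drank 0.33% HD and the water group (n = 20) water, and both were killed as exposure ended, after 3 months. The comparisons ask which transcripts differ between exposed rats and their own controls, at the end of exposure and after recovery. Any contrast of a recovery group with its earlier group also spans 3 months of age, and the time of kill cannot be told apart from any day of processing.

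Superoxide dismutases turn superoxide into hydrogen peroxide, which catalase, glutathione peroxidases and peroxiredoxins then remove, while glutathione reductase and the thioredoxin reductases restore the thiols that are spent. Many of these genes are switched on by NRF2 (the product of Nfe2l2), which KEAP1 holds in check until oxidants or electrophiles modify it. Mature sperm have little cytoplasm, so their peroxide defence rests on a few forms: GPX4, which is also a structural protein of the sperm mitochondrial sheath, PRDX4 and PRDX6, the spermatid and sperm thioredoxins encoded by Txndc2 and Txndc8, and the secreted enzymes of epididymal fluid.

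The start regions of 4 genes are printed because they show the element through which NRF2 acts, TGACNNNGC (N is any base), in genes named below, beside Gpx3, the gene that came nearest to the test's threshold in HD arrays. The windows run from 250 bases before to 50 bases after the gene start in RefSeq on build GRCr8, read 5′ to 3′ on the gene's own strand, with the element in capitals, here on the opposite strand in each of the 3 genes that hold it. Gclm (the regulatory subunit of the enzyme that limits glutathione synthesis) is given from chr2:213031885-213032184 (+), Prdx1 (a cytosolic peroxiredoxin) from chr5:135383656-135383955 (+), Txnrd1 (cytosolic thioredoxin reductase) from chr7:22755855-22756154 (-), and Gpx3 (the secreted glutathione peroxidase) from chr10:39529085-39529384 (+).
Gclm: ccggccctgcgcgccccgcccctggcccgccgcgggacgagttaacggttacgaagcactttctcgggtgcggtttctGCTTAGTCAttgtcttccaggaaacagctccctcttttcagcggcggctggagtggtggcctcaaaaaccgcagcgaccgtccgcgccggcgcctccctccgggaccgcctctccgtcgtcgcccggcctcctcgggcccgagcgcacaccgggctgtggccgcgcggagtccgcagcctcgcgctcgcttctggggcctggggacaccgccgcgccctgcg
Prdx1: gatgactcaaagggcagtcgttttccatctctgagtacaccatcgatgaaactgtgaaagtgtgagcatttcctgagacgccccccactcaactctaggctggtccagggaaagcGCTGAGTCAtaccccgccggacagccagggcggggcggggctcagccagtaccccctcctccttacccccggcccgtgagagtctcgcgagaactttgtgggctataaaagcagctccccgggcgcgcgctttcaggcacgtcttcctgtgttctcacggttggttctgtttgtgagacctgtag
Txnrd1: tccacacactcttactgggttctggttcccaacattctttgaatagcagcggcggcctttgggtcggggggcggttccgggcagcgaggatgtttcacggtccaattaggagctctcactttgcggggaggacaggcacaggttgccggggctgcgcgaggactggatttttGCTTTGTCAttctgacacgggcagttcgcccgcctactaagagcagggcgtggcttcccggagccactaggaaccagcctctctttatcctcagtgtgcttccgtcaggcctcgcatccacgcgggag
Gpx3: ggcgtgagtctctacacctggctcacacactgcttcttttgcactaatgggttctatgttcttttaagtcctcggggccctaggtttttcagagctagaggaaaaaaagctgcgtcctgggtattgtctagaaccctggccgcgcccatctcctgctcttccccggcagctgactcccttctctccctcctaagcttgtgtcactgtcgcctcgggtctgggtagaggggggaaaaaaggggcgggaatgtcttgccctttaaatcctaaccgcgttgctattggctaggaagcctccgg
The first base of the element lay at position -172 in Gclm, -135 in Prdx1 and -78 in Txnrd1, counted from the gene start as 0. In Prdx1 the element read on its own strand begins with TGACTCA, which is also the site of AP-1. Start windows were matched for 31 of the 36 genes (36 windows, since some genes have more than 1 start), and the element was searched on both strands. It stood in 10 of these windows, 1 each in Gclm, Gpx2, Gstp1, Hmox2, Nfe2l2, Prdx1, Prdx4, Prdx5, Sod2 and Txnrd1, or 27.8%, against 4038 of the 33469 windows of the genome set (12.1%). A match describes these letters and shows neither binding nor a cause of any level.

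The deposited values were taken to be log2 intensities from their range, 2.51 to 14.63, and array medians lay between 6.51 and 6.78. An array was said to stand apart where its median correlation with the others of its group lay more than 3 scaled median absolute deviations under the group's median. By this rule 3 HD-recovery, 2 water-recovery, 4 HD and 1 water arrays stood apart, with median correlations as low as 0.946, 0.932, 0.830 and 0.942 in these groups. All 77 arrays were kept, and results that turn on the 10 are given with and without them. The sperm label was checked on 15 sperm and spermatid markers (Prm1, Tnp1, Odf1, Akap4 and others), whose mean log2 level lay between 9.08 and 11.46 on every array, above that array's median. The means of 15 leukocyte and macrophage markers (6.98 to 8.19) and of 13 epididymal epithelium markers (6.95 to 8.29) also lay above the array medians. In bulk RNA fewer cells of a type and less RNA per cell cannot be told apart.

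**Figure D1:**
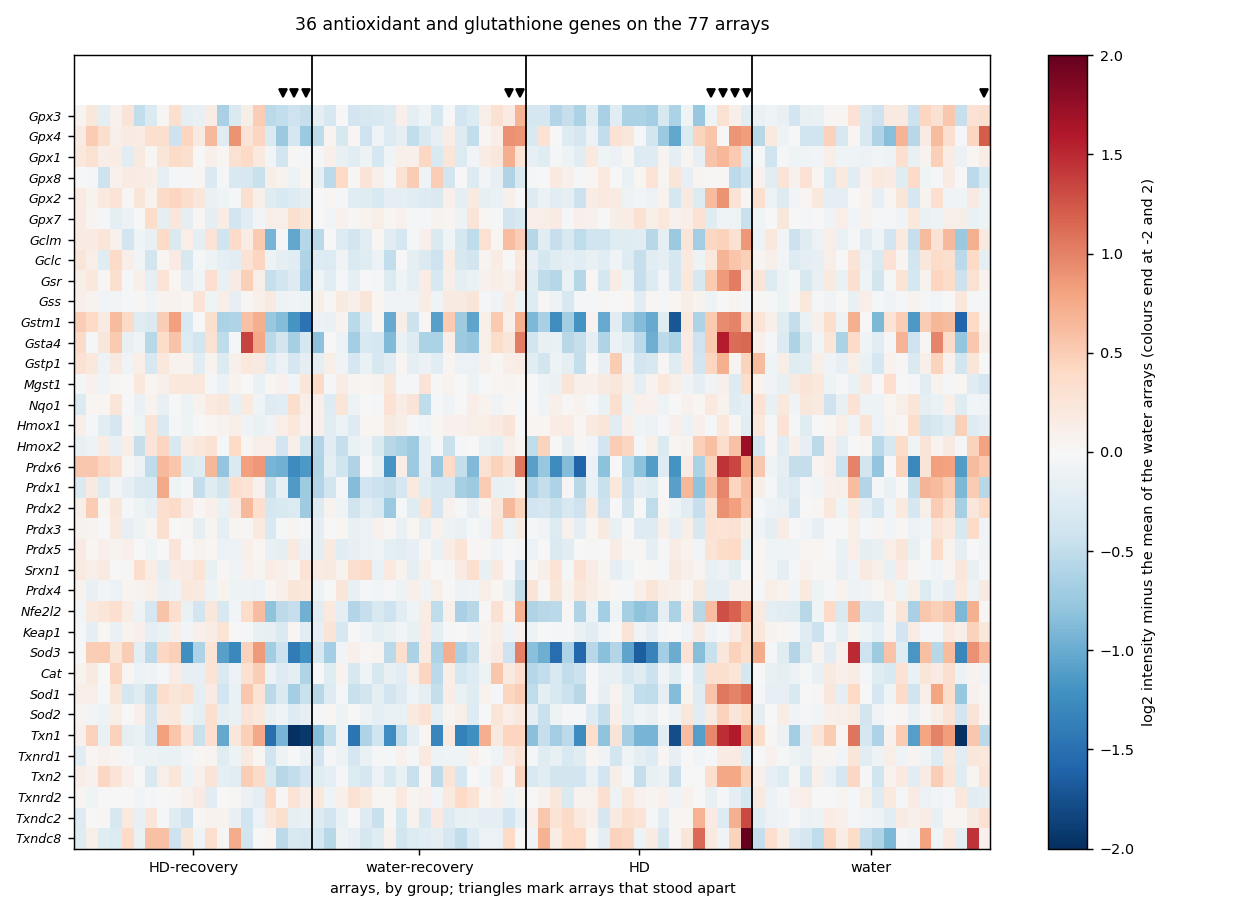
Heat map of the 36 genes (rows, grouped by role) on the 77 arrays (columns, in the order HD-recovery, water-recovery, HD and water), coloured by log2 intensity minus the mean of the water arrays. Triangles mark the 10 arrays that stood apart; the 4 of the HD group are red in most genes, while the 3 of the HD-recovery group are blue in Gstm1, Prdx6 and Txn2.

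At the end of exposure, none of the 36 genes passed the test in HD against water arrays, where 138 of all 29214 probe sets did (0.472%; limma, q under 0.05, with Storey q-values over all probe sets). The genes nearest to the threshold were Gpx3, Sod3 and Cat, with lower means in HD arrays, and Txndc2, with a higher mean. An unadjusted p under 0.05 was reached by 5 of the 36 genes (13.9%), against 8.3% of all probe sets, and by Benjamini-Hochberg adjustment too no gene passed. The log2 fold changes (HD minus water throughout) ran from -0.70 in Sod3 to 0.42 in Txndc8, with a median of -0.03 over the 36 genes and 0.01 over all probe sets, and 24 of the 36 (66.7%) were negative, against 43.7% of all probe sets. These signs follow the sample labels and run opposite to the published direction of altered transcripts. Of 70 such transcripts matched by name, 69 had the other sign on these arrays, and that list of 70 holds none of the 36 genes. Sod3, a candidate transcript outside that list, was published with the opposite direction too. Groups are therefore meant as the arrays labelled HD and water.

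Gpx3 encodes the secreted glutathione peroxidase of plasma and epididymal fluid. Its lowest, median and highest log2 values were 7.39, 7.87 and 8.53 in HD-recovery arrays, 7.65, 7.85 and 8.72 in water-recovery arrays, 7.28, 7.69 and 8.34 in HD arrays and 7.58, 8.01 and 8.58 in water arrays. The water median exceeded 17 of the 19 HD arrays, and the lowest water array exceeded 9, yet the ranges overlapped. The log2 fold change was -0.37 (SE 0.09, 95% interval -0.57 to -0.18, 1.30-fold lower, q = 0.053 by limma). Without each of the 39 arrays in turn it stayed between -0.41 and -0.35, and q fell under 0.05 in 10 of these fits, between 0.014 and 0.10 over all 39. The 10 were those without HD replicates 3, 4, 5, 13 and 14 and without water replicates 11, 12, 15, 16 and 17. Without the arrays that stood apart it was -0.46 (q = 4.9e-04 by limma).

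Sod3, the extracellular superoxide dismutase and one of the study's candidate transcripts, showed the most negative fold change of the 36 genes under the deposited labels. With HD and water turned round the same difference would be the most positive, and that of Txndc8 the most negative. It measured 7.16, 8.46 and 9.40 (lowest, median and highest log2 value) in HD-recovery arrays, 7.87, 8.54 and 9.56 in water-recovery arrays, 6.90, 7.71 and 9.01 in HD arrays and 7.24, 8.42 and 10.05 in water arrays. In 15 of 19 HD arrays it was below the water median, and 4 were below every water array, while the ranges overlapped over most of their length. The fold change was -0.70 (log2, SE 0.21, 95% interval -1.12 to -0.27, 1.62-fold lower, q = 0.14 by limma). Leaving out single arrays gave -0.77 to -0.62, and q was under 0.05 only without HD replicate 5 (0.048) or water replicate 12 (0.045). It was -0.89 (q = 0.0022 by limma) without the arrays that stood apart.

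Cat encodes catalase, which splits hydrogen peroxide in peroxisomes. HD-recovery arrays held lowest, median and highest log2 values of 7.65, 8.20 and 8.75, water-recovery arrays 7.71, 8.16 and 8.81, HD arrays 7.69, 8.01 and 8.57, and water arrays 7.95, 8.23 and 8.57. In 15 of 19 HD arrays Cat was below the water median, in 9 below the lowest water array, and the highest HD and water arrays were level. The log2 fold change was -0.19 (SE 0.07, 1.14-fold lower, q = 0.33 by limma), and -0.28 (q = 0.0016 by limma) without the arrays that stood apart. Sod1, the cytosolic dismutase, measured 7.91, 8.51 and 9.13 in HD-recovery arrays, 8.03, 8.42 and 9.08 in water-recovery arrays, 7.73, 8.41 and 9.70 in HD arrays and 7.84, 8.59 and 9.38 in water arrays. Its log2 fold change was -0.04 (95% interval -0.33 to 0.25), and that of mitochondrial Sod2 was -0.03 (-0.17 to 0.11), both with a limma q of 0.98 or above.

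Txndc2, a thioredoxin of the sperm tail, had a higher mean in HD arrays. The lowest, median and highest log2 values were 6.94, 7.26 and 7.66 in HD-recovery arrays, 6.89, 7.14 and 7.52 in water-recovery arrays, 7.00, 7.52 and 8.67 in HD arrays and 7.11, 7.33 and 7.64 in water arrays. Above the water median lay 15 of the 19 HD arrays, and 6 were above every water array, with HD replicate 5, an array that stood apart, at the top. The log2 fold change was 0.23 (SE 0.09, 1.18-fold higher, q = 0.36 by limma) over all arrays and 0.18 (q = 0.025 by limma) without those that stood apart. Its relative Txndc8, a thioredoxin of spermatids, measured 7.41, 7.89 and 8.68 in HD-recovery arrays, 7.39, 7.70 and 8.33 in water-recovery arrays, 7.60, 8.13 and 12.02 in HD arrays and 7.04, 7.89 and 9.38 in water arrays. Its fold change of 0.42 (log2, SE 0.23, q = 0.69 by limma) came down to 0.22 without HD replicate 5, the array at 12.02, and to 0.23 (q = 0.11 by limma) without the arrays that stood apart.

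**Figure D2:**
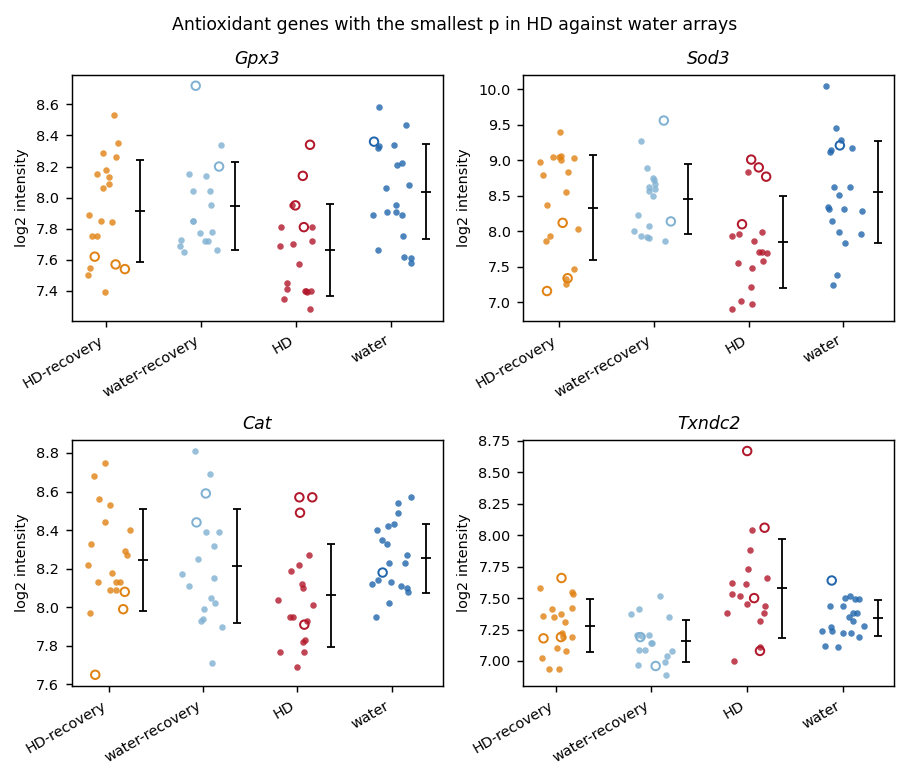
Log2 intensity of Gpx3, Sod3, Cat and Txndc2 on each array, by group from left to right HD-recovery, water-recovery, HD and water, with the mean and SD beside the points and open circles for arrays that stood apart. HD values were under the water median in 17 (Gpx3), 15 (Sod3) and 15 (Cat) of 19 arrays and over it in 15 (Txndc2), while the ranges overlapped in every panel.

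Of the remaining thioredoxin system, Txnrd1 had lowest, median and highest log2 values of 5.98, 6.30 and 6.56 in HD-recovery arrays, 6.00, 6.35 and 6.65 in water-recovery arrays, 6.01, 6.29 and 6.55 in HD arrays and 6.12, 6.37 and 6.62 in water arrays. The ranges nearly coincided, and the log2 fold change was -0.11 (SE 0.05, q = 0.59 by limma). Txn1, the cytosolic thioredoxin, spread far more within groups, with 7.46, 10.09 and 10.92 in HD-recovery arrays, 8.64, 9.67 and 10.83 in water-recovery arrays, 8.33, 9.58 and 11.70 in HD arrays and 7.66, 10.17 and 11.18 in water arrays. Its log2 fold change of -0.21 had a 95% interval from -0.77 to 0.34 (q = 0.97 by limma). The wide spread of Txn1 lay in all 4 groups. Mitochondrial Txn2 measured 7.77, 8.41 and 8.83 in HD-recovery arrays, 7.80, 8.21 and 8.78 in water-recovery arrays, 7.85, 8.20 and 9.10 in HD arrays and 7.93, 8.36 and 8.83 in water arrays, with a log2 fold change of -0.05 (q = 0.98 by limma).

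Among the peroxiredoxins, which reduce peroxides through a reactive cysteine, Prdx4 of the endoplasmic reticulum and acrosome measured 5.39, 5.59 and 5.78 (lowest, median and highest log2 value) in HD-recovery arrays, 5.05, 5.49 and 5.78 in water-recovery arrays, 5.35, 5.64 and 5.80 in HD arrays and 5.27, 5.51 and 5.73 in water arrays. Of the 19 HD arrays 16 lay above the water median, by small amounts (log2 fold change 0.09, SE 0.05, q = 0.61 by limma). The most negative of the 7 was Prdx6 at -0.36 (SE 0.23, q = 0.79 by limma), and the rest lay between -0.11 in Prdx1 and 0.02 in Prdx5 and Srxn1. Gpx4 measured 7.46, 8.38 and 9.11 in HD-recovery arrays, 7.69, 8.03 and 9.12 in water-recovery arrays, 7.17, 8.16 and 9.08 in HD arrays and 7.35, 8.17 and 9.42 in water arrays. Its log2 fold change of -0.02 had a 95% interval from -0.34 to 0.29, so a difference inside that interval is not excluded. The interval does not give the smallest difference that the test could call. Of the other glutathione peroxidases, Gpx1, Gpx2, Gpx7 and Gpx8 had log2 fold changes from 0.00 to 0.06.

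The 4 genes of glutathione synthesis and recycling (Gclc, Gclm, Gss and Gsr) had log2 fold changes from -0.18 in Gclm to -0.04, and none had an unadjusted p under 0.05. Gstm1, a cytosolic glutathione transferase, was the brightest probe set of the group. Its lowest, median and highest log2 values were 10.42, 11.98 and 12.71 in HD-recovery arrays, 10.80, 11.84 and 12.60 in water-recovery arrays, 10.18, 11.24 and 12.88 in HD arrays and 10.31, 12.00 and 12.61 in water arrays. Below the water median lay 14 of 19 HD arrays, while the 2 highest HD arrays lay above every water array, and the log2 fold change was -0.41 (SE 0.21, q = 0.63 by limma). The haem and quinone enzymes Hmox1, Hmox2 and Nqo1 had log2 fold changes of 0.03, 0.21 and 0.01 (limma q of 0.76 or above). Hmox1 and Nqo1 are dim, with means over all arrays of 6.15 and 5.77, under every array median.

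Nfe2l2 and Keap1 did not pass the test either. Nfe2l2 measured 6.08, 6.99 and 7.66 in HD-recovery arrays, 6.40, 6.84 and 7.74 in water-recovery arrays, 6.24, 6.51 and 8.34 in HD arrays and 6.15, 7.01 and 7.76 in water arrays. It was under the water median in 13 of 19 HD arrays and above every water array in 3 (log2 fold change -0.14, SE 0.17, q = 0.97 by limma). Keap1 measured 6.24, 6.50 and 6.80 in HD-recovery arrays, 6.21, 6.46 and 6.78 in water-recovery arrays, 6.30, 6.49 and 6.91 in HD arrays and 6.10, 6.53 and 6.98 in water arrays. Its groups covered nearly the same range, with a log2 fold change of 0.00 (95% interval -0.13 to 0.12, q = 0.99 by limma).

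**Figure D3:**
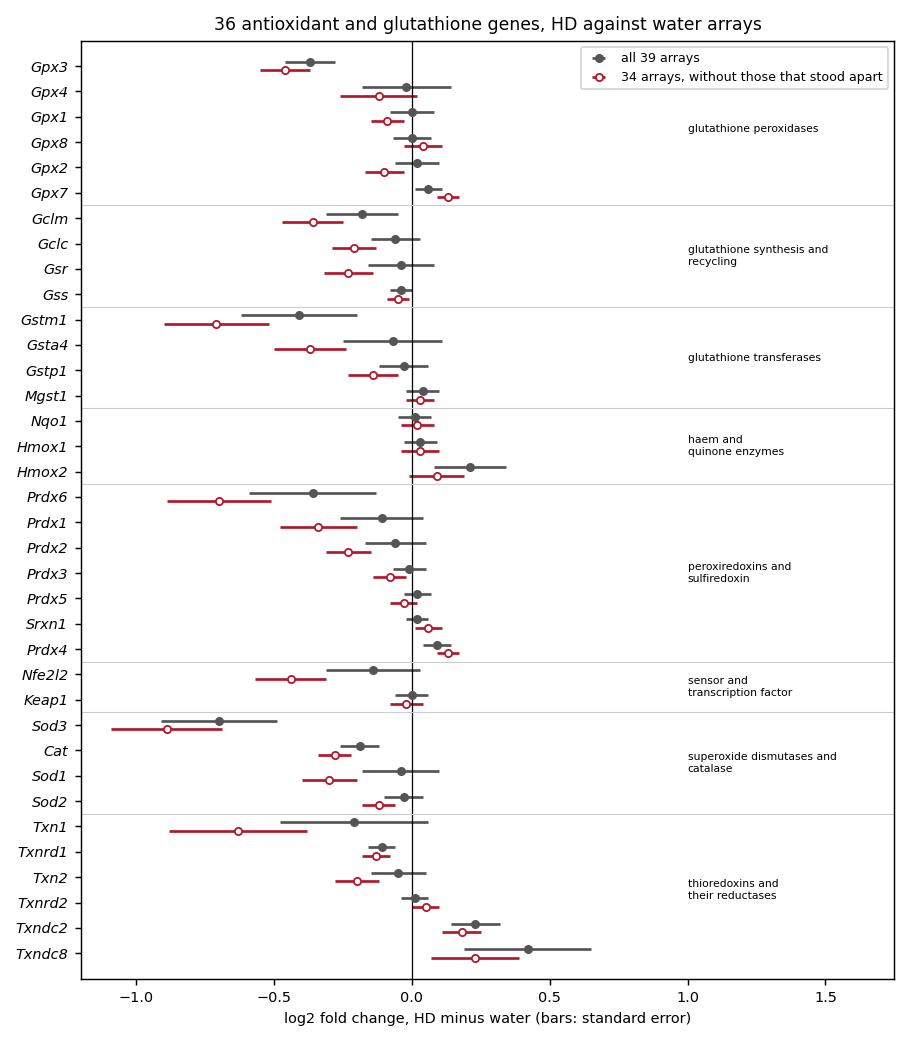
Log2 fold change of each of the 36 genes, HD minus water, with bars of 1 SE, grouped by role, for all 39 arrays (filled grey) and for the 34 arrays left without those that stood apart (open red). Sod3 moved to -0.89 and Prdx6, Txn1, Gstm1 and Nfe2l2 to -0.70, -0.63, -0.71 and -0.44, while Keap1, Nqo1 and Hmox1 stayed within 0.03 of 0 in both. Keap1, Nqo1 and Hmox1 are dim, with means over all arrays of 6.51, 5.77 and 6.15, at or under the lowest array median (6.51).

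The 4 HD arrays that stood apart sat at the high end of most of these genes. In 28 of the 36 genes at least 1 of the 4 lay above all 15 other HD arrays, and in 9 at least 1 lay below them. These arrays were picked on all probe sets, and no matching count over all probe sets was made for any group. The positions given here are therefore not shown to be particular to these genes. All 4 lay above the other 15 in Sod1, Prdx2, Prdx6, Txn1, Txn2, Gsr, Gclc, Gclm, Gstm1, Gsta4 and Nfe2l2. Nfe2l2, for example, lay between 7.66 and 8.34 on the 4 and between 6.24 and 7.20 on the 15, and Gstm1 between 12.35 and 12.88 on the 4 and between 10.18 and 12.10 on the 15. Gpx7, a peroxidase of the endoplasmic reticulum, ran the other way, at 6.84 to 7.19 on the 4 and 7.25 to 7.58 on the 15. The 3 HD-recovery arrays that stood apart were at the opposite end: all 3 lay below the other 17 in Prdx6, Txn2 and Gstm1. The 2 of the water-recovery group lay above their other 16 in Sod1, Gpx4, Prdx2, Gclm, Hmox2 and Gstp1.

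**Figure D4:**
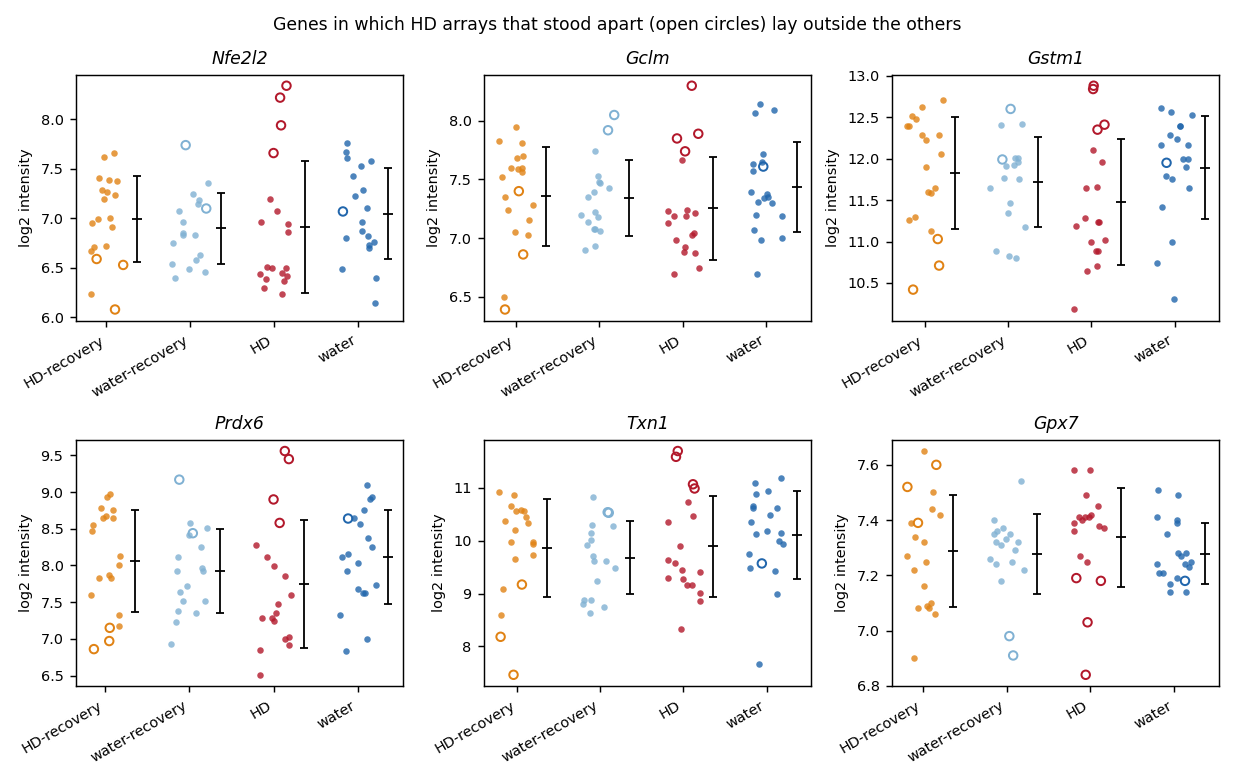
Log2 intensity of Nfe2l2, Gclm, Gstm1, Prdx6, Txn1 and Gpx7 on each array, by group from left to right HD-recovery, water-recovery, HD and water, with mean and SD, and open circles for arrays that stood apart. In the HD group the 4 open circles lie above all 15 others in the first 5 genes (7.66 to 8.34 against 6.24 to 7.20 in Nfe2l2) and below them in Gpx7 (6.84 to 7.19 against 7.25 to 7.58).

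Without the arrays that stood apart (15 HD against 19 water arrays), 19 of the 36 genes passed the test, 16 lower and 3 higher, against 30.2% of all probe sets (12.8% lower and 17.4% higher). Leaving out arrays by their distance from their group also narrows the spread that the test uses, so the 2 sets of calls are not equally strict. The lower genes covered every role but the haem and quinone enzymes. They were Sod1, Sod3 and Cat of the dismutases and catalase, Gpx3 of the glutathione peroxidases, Prdx1, Prdx2 and Prdx6 of the peroxiredoxins, Txn1, Txn2 and Txnrd1 of the thioredoxin system, Gsr, Gclc and Gclm of glutathione synthesis and recycling, Gstm1 and Gsta4 of the transferases, and Nfe2l2. Gstm1 was at -0.71 (log2, SE 0.19, q = 0.0055 by limma) and Prdx6, which also has phospholipase activity, at -0.70 (SE 0.19, q = 0.0064 by limma). Nfe2l2 stood at -0.44 (SE 0.13, q = 0.011 by limma) and Gclm, whose start region is printed above, at -0.36 (SE 0.11, q = 0.012 by limma). Prdx1 and Txnrd1, the other printed genes with the element, were at -0.34 and -0.13. Of the remaining genes with the element, Nfe2l2 passed as lower and Prdx4 as higher. Gpx2, Gstp1, Hmox2, Prdx5 and Sod2 did not pass, at -0.10, -0.14, 0.09, -0.03 and -0.12. Sod1, Cat, Gpx3, Prdx2, Txn1, Txn2, Gclc, Gstm1 and Gsta4, whose windows lack the element, passed as lower. Sod3, Prdx6 and Gsr, which also passed as lower, had no matched window. Whether the element bears on these levels was not tested. The higher genes were Gpx7, Prdx4 and Txndc2, at 0.13, 0.13 and 0.18. Among the genes that passed, Txnrd1 and Prdx4 are dim, with means over all arrays of 6.33 and 5.56, under every array median.

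The marker lists of other cells also differed in mean between these arrays. In HD against water arrays the mean of the leukocyte and macrophage markers was 7.32 against 7.53 (13 of 15 genes negative, none called; range 6.98 to 7.79 against 7.21 to 7.86), with the water median above 16 of 19 HD arrays. Erythroid markers averaged 7.15 against 7.51 (5 of 5 measured genes negative; Ahsp alone was called, at -0.25, q = 0.027 by limma), with 18 of 19 below, and the epididymal mean 7.23 against 7.29 (9 of 13 negative, none called), with 12 of 19 below. Fibroblast and connective tissue markers averaged 7.00 against 7.11 (6 of 8 negative), Sertoli cell markers 6.82 against 6.75 (6 of 7 positive) and sperm markers 10.14 against 9.94 (10 of 15 positive, and Odf1 called at -0.22, q = 0.044 by limma). Without the arrays that stood apart, the HD minus water differences were -0.25, -0.39, -0.14, -0.05, 0.08 and 0.11 for the leukocyte, erythroid, epididymal, fibroblast, Sertoli and sperm lists. Their part in the results on the antioxidant genes was not tested.

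Across the 77 arrays, with group means removed, each gene was set against each of the 6 lists (216 pairs, 100000 permutations within groups, Benjamini-Hochberg over the pairs). Catalase ran with the leukocyte list (r = 0.76, rho = 0.77) and the erythroid list (r = 0.72, rho = 0.72), and Sod3 with the epididymal list (r = 0.80, rho = 0.85). Gpx3 ran with both the epididymal (r = 0.72, rho = 0.78) and the leukocyte list (r = 0.69, rho = 0.74). The sperm list went with Gpx4 (r = 0.86, rho = 0.88), Txndc8 (r = 0.78, rho = 0.84) and, less closely, Txndc2 (r = 0.63, rho = 0.56). For each of these pairs the permutation p was 1e-05, the smallest that the permutations can give, and 3.3e-05 for r and 2.8e-05 for rho after adjustment. Without the 2 arrays farthest from the median of the list, r was 0.73 and 0.68 for Cat with the leukocyte and erythroid lists, 0.84 for Sod3, 0.74 and 0.71 for Gpx3 with the epididymal and leukocyte lists, 0.85 for Gpx4, 0.80 for Txndc8 and 0.52 for Txndc2.

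Within the 4 groups, r lay between 0.67 and 0.81 for Cat with the leukocyte list, between 0.59 and 0.88 for Cat with the erythroid list, between 0.66 and 0.93 for Sod3 and between 0.80 and 0.92 for Gpx4. Gpx3 gave 0.68 to 0.85 with the epididymal and 0.62 to 0.77 with the leukocyte list, and Txndc8 gave 0.75 to 0.82. Txndc2 did not hold evenly, at 0.29 in HD-recovery, 0.13 in water-recovery, 0.92 in HD and 0.73 in water arrays. On the 67 arrays that did not stand apart, r was 0.73 for Cat with the leukocyte list, 0.76 for Sod3, 0.84 for Gpx4, 0.85 for Txndc8 and 0.64 for Txndc2. The group means removed were those of all 77 arrays, here and without the 2 farthest arrays. They were not taken again on the arrays left, so differences between groups can enter these values. Over all 36 genes, the adjusted p of r was under 0.05 in 169 of the 216 pairs. No matching count of adjusted p over all probe sets was made, so this count is not shown to be particular to these genes. For the leukocyte list r exceeded 0.5 in 18 genes (50%), against 9.42% of all probe sets. It did so in 16 genes for the epididymal list (44.4%, against 11.6%), in 11 for the erythroid list (30.6%, against 7.12%) and in 5 for the sperm list (13.9%, against 8.12%). For the Sertoli list r lay under -0.5 in 11 genes (30.6%), against 6.35% of all probe sets. The lowest of these was Txn1 (r = -0.66, rho = -0.73, permutation p 1e-05, -0.77 without the 2 farthest arrays, and -0.89 to -0.43 within groups).

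**Figure D5:**
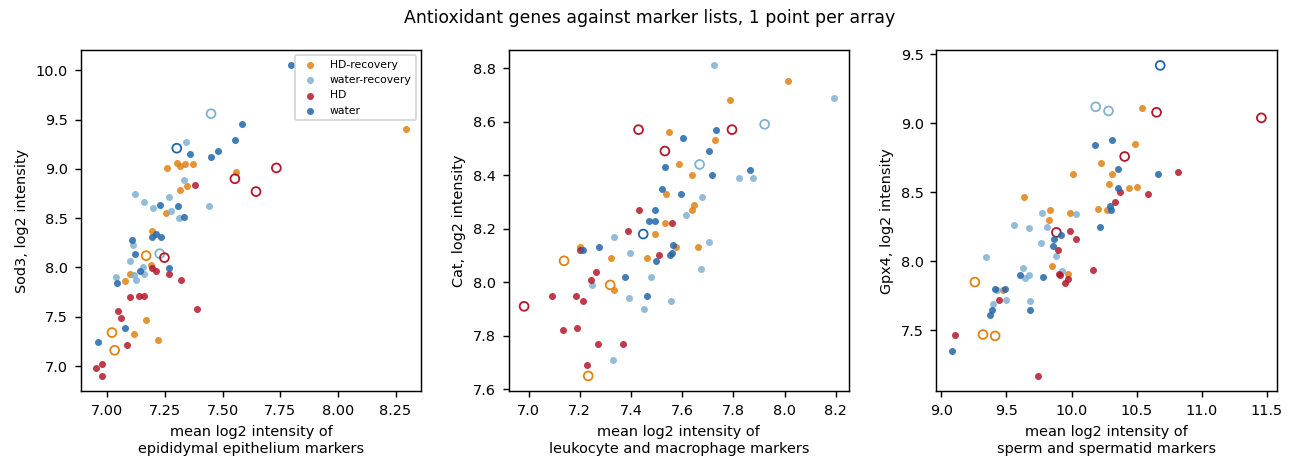
Log2 intensity of Sod3 against the mean of the epididymal markers, of Cat against the leukocyte and macrophage markers and of Gpx4 against the sperm and spermatid markers (mean log2 intensity on each x axis), 1 point per array, coloured by group with open circles for arrays that stood apart. With group means removed, r was 0.80, 0.76 and 0.86 over the 77 arrays.

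After recovery, no probe set passed the test in HD-recovery against water-recovery arrays (0% of 29214, limma and Benjamini-Hochberg alike), and so none of the 36 genes did. The smallest q among them was 0.72, 3 genes (8.33%) had an unadjusted p under 0.05, against 4.51% of all probe sets, and the log2 fold changes ran from -0.13 to 0.28 (median 0.06, against -0.01 over all). Of the 36, 26 were positive and 27.8% negative, against 53.6% negative over all probe sets. Hmox2, the constitutive haem oxygenase, measured 6.48, 7.06 and 7.37 (lowest, median and highest log2 value) in HD-recovery arrays and 6.24, 6.76 and 7.06 in water-recovery arrays, against 6.44, 7.02 and 8.65 in HD arrays and 6.40, 6.97 and 7.75 in water arrays. Of 20 HD-recovery arrays 16 lay above the water-recovery median and 10 above the highest water-recovery array (log2 fold change 0.28, SE 0.08, q = 0.72 by limma).

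Gpx2, the peroxidase best known from the gut epithelium, also had a higher mean in HD-recovery than in water-recovery arrays, by a smaller amount. It measured 6.64, 7.03 and 7.37 in HD-recovery arrays, 6.64, 6.78 and 7.12 in water-recovery arrays, 6.52, 6.89 and 7.84 in HD arrays and 6.60, 6.92 and 7.28 in water arrays, with 16 of 20 HD-recovery arrays above the water-recovery median (log2 fold change 0.19, SE 0.06, q = 0.73 by limma). For Txndc8 the recovery groups differed by 0.21 (log2, SE 0.10, q = 1.0 by limma). Txnrd2, the mitochondrial thioredoxin reductase, measured 7.25, 7.48 and 7.87 in HD-recovery arrays, 7.39, 7.57 and 7.87 in water-recovery arrays, 7.12, 7.53 and 7.80 in HD arrays and 7.21, 7.46 and 7.68 in water arrays. Its fold change after recovery was -0.09 (log2, SE 0.05, q = 1.0 by limma). Gpx3, Sod3 and Cat, the genes nearest to the threshold at the end of exposure, stood at -0.03, -0.13 and 0.03 here. Without the arrays that stood apart (17 against 16), 11 of the 36 genes passed, 10 higher and 1 lower, against 13.1% of all probe sets. Of all probe sets 6.54% were higher and 6.58% lower. Here too the step moved the group means. In Gpx4 the HD-recovery arrays left out averaged 7.59, against 8.44 on the others. The water-recovery arrays left out averaged 9.11, against 8.01, and the log2 fold change went from 0.18 to 0.43. The higher ones of the 36 were Gpx1, Gpx2, Gpx4, Prdx2, Txn1, Txn2, Gclc, Hmox2, Gsta4 and Txndc8, from 0.18 in Gpx1 to 0.58 in Txn1, and the lower one was Txnrd2 at -0.13. On the same arrays the mean of the sperm markers was higher by 0.44 in HD-recovery than in water-recovery arrays and that of the epididymal markers by 0.12, and their part was not tested.

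The difference between the effect of HD at the end of exposure and after recovery, tested in 1 fit of all 4 groups, passed the threshold for no probe set (0%). Of the 36 genes 1 had an unadjusted p under 0.05, against 3.38% of all probe sets, and q was 1.0 for every gene by limma. It was Gpx3, with a difference of -0.34 (log2, SE 0.14), followed by Sod3 at -0.57 (SE 0.29), Cat at -0.22 (SE 0.11) and Gstm1 at -0.52 (SE 0.29). Over the 36 genes the median difference was -0.08, against 0.02 over all probe sets. Without the arrays that stood apart, a step that also moves the group means, 25 of the 36 passed, 22 negative and 3 positive. Of all probe sets 56.8% passed (18.8% negative and 38% positive).

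Between the exposed groups, HD-recovery against HD, none of the 36 genes passed, and 9 of all probe sets did (0.0308%; limma). Unadjusted p was under 0.05 in 4 genes (11.1%), against 7.55% of all probe sets. These were Txndc2 with a log2 fold change of -0.30 (SE 0.10, q = 0.31 by limma), Gpx3 with 0.25 (SE 0.10, q = 0.47 by limma), Sod3 with 0.48 (SE 0.21, q = 0.59 by limma) and Cat with 0.18 (SE 0.08, q = 0.61 by limma). They are the 4 genes with the smallest p in HD against water, and both comparisons share the HD arrays. Of the 20 HD-recovery arrays 17 lay above the HD median in Cat, 15 in Sod3 and 14 in Gpx3, and 16 lay below it in Txndc2. Without the arrays that stood apart, a step that also moves the group means, 25 of the 36 genes passed, 21 higher and 4 lower. Of all probe sets 57.9% passed (18% higher and 39.9% lower). On the same arrays the erythroid list was higher by 0.54 and the leukocyte list by 0.29.

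Between the control groups, water-recovery against water, no probe set passed (0%; limma). Of the 36 genes 5 (13.9%) had an unadjusted p under 0.05, against 6.52% of all probe sets, and the smallest q was 0.64. The fold changes were negative in 28 of 36 (77.8%, against 49.1% of all probe sets), from -0.43 in Txn1 to 0.12 in Txnrd2. Txndc2 had the smallest p, with a log2 fold change of -0.18 (SE 0.05, q = 0.64 by limma), and 8 of 18 water-recovery arrays lay below every water array. Hmox2 followed at -0.25 (SE 0.09) and Txnrd2 at 0.12 (SE 0.05), each with q = 0.64 by limma. Prdx1 measured 6.99, 7.93 and 8.89 in HD-recovery arrays, 7.26, 7.79 and 8.64 in water-recovery arrays, 7.05, 7.95 and 9.10 in HD arrays and 7.23, 8.10 and 8.81 in water arrays, and its log2 fold change between the control groups was -0.30 (SE 0.12, q = 0.64 by limma). No gene passed in this comparison without the arrays that stood apart either, and no probe set of the whole array did (0% of 29214). In the comparisons that hold HD or HD-recovery arrays, that step gave calls over the whole array, from 13.1% to 57.9% of all probe sets. The contrast is therefore not particular to these genes. The sperm marker mean was 9.73 in water-recovery arrays, against 9.94 in water arrays, and its part was not tested.

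Of 71 other genes of the pathway (further transferases and peroxidases, glutathione turnover, glutaredoxins, methionine sulfoxide reductases, NADPH supply, and partners and targets of NRF2), 64 were measured and none passed the test in any of the 5 comparisons by limma. Unadjusted p was under 0.05 in 5 of the 64 in HD against water (against 8.3% of all probe sets), 6 in HD-recovery against water-recovery (against 4.51%), 4 in HD-recovery against HD (against 7.55%), 7 in water-recovery against water (against 6.52%) and 2 in the difference of the HD effects (against 3.38%). Their median log2 fold change in HD against water was -0.01, with a range from -0.63 in Gstm2 to 0.43 in Nme8. Nme8, a thioredoxin-domain protein of the sperm tail, had the smallest p of these (SE 0.12, q = 0.099 by limma), and Park7, a redox-sensitive chaperone, stood at -0.43 (SE 0.17, q = 0.39 by limma).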

How the data were processed

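Sperm RNA of 77 Fischer 344 rats in 4 groups, 1 array per rat, was measured on Affymetrix Rat Gene 1.0 ST arrays, and groups were taken from the sample labels. The authors deposited 1 table of log2 intensities for 29214 probe sets, already normalized; the steps were not given in the sources used here. The log2 scale was read from the range of the values, and no depth applies to arrays, whose number limits the precision. The platform annotation, which can be old, gave 1 symbol for 15310 probe sets, several for 323 and none for 13581.

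Each exposed group was fitted with its own control in limma 3.58.1 (R 4.3.3) on all probe sets with no filter, as the study's methods describe, and so were each recovery group and its earlier group. The difference of the HD effects was fitted over all 4 groups. The p-values were turned into Storey q-values (lambda steps 0.05 to 0.95) over all probe sets, and q under 0.05 was called. The fits were tested on simulated data. Correlations and permutations were computed with scipy 1.17.1 and figures with matplotlib 3.10.9.

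Values by group were given for the 6 genes with the smallest p in HD against water, the 4 with the smallest p in each other comparison, the 5 brightest, and Sod3, Gpx4, Txndc2, Txndc8, Nfe2l2 and Keap1; genes named for the arrays that stood apart were chosen after their values were seen. The genes, marker lists and rules were chosen with earlier results of these data known. The alternatives were Benjamini-Hochberg adjustment, centred medians, quantile normalization, array weights, leaving out arrays that stood apart or single arrays, a filter on dim probe sets, the mean of a gene's probe sets, a replicate block and a fit of all groups.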

Additional observations from a re-analysis of the deposited data

How the results depend on the processing

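In HD against water arrays, the count of genes that passed was 0 over all arrays, and 0 with Benjamini-Hochberg adjustment, with array medians centred and with the mean of a gene's probe sets. It was 2 after quantile normalization (Gpx3 and Sod3, both lower), with 1.2% of all probe sets called. A filter on dim probe sets that left 31 genes gave 1 (Gpx3), with 1.41% of the probe sets kept called. All 4 groups in one fit gave 1 (Gpx3), with 0.756% of all probe sets called. Array weights gave 12 (3 higher and 9 lower, with 17.7% called), and 19 passed with the arrays that stood apart left out (30.2% called). Leaving out each array in turn gave 0 to 2, and the shares over all probe sets in these fits are not given here. In HD-recovery against water-recovery the count was 0 except for 2 with array weights (against 1.8% of all probe sets) and 11 with the arrays that stood apart left out; in HD-recovery against HD it was 0 except for 20 (against 44.5%) and 25 under the same settings, and in the difference of the HD effects 0 except for 21 (against 33.7%) and 25. In water-recovery against water it was 0 under every setting tried. Over all probe sets, 138 passed in HD against water, 63 with array medians centred, 352 after quantile normalization, 5178 with array weights and 8818 with the arrays that stood apart left out. In HD against water, 10 of the 36 genes, with log2 fold changes from -0.04 to 0.02 over all arrays, had the other sign in at least 1 of the 39 fits without a single array. Among them were Gpx4 (-0.07 to 0.04) and Keap1 (-0.03 to 0.02). In HD-recovery against water-recovery 7 genes did so, in HD-recovery against HD 10, in water-recovery against water 4 and in the difference of the HD effects 5, each with a log2 value from -0.03 to 0.02 over all arrays.

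The replicate numbers were not taken to pair the rats. Over all probe sets, deviations of same-numbered HD and water arrays correlated between -0.58 and 0.65 (median 0.03), and 2 of 19 correlated best with their own number. In HD-recovery against water-recovery 4 of 18 did so (median 0.04). In HD-recovery against HD it was 2 of 19 (median 0.19), and between the control groups 0 of 18 (median -0.02). With a replicate block 2 genes passed in HD against water (Gpx3 and Sod3, q = 0.021 and 0.041 by limma), against 0.534% of all probe sets. None passed in the other 3 comparisons of 2 groups. Among the limits of these results are the spread between arrays of 1 group and the unstated normalization. Others are the published direction, opposite to that under the labels, and the untested part of RNA from other cells. The cause of the changes under array weights and without the arrays that stood apart was not tested.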
